A study of Mus musculus with 9 samples.

Results

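The comparison set motor neurons captured at the fifth lumbar level (L5) against those of the dorsolateral nucleus, captured at the sixth (DL). It rests on 6 of the 9 arrays of the series, the 3 titled lumbar motor neurons and the 3 titled DL nucleus motor neurons, and covers all 18193 named genes. All animals were untreated wild-type C57BL/6J male mice at postnatal day 7. No allele, agent or disease model was involved. The other 3 arrays, of oculomotor motor neurons (OMN), entered the fit to estimate the spread of each gene. They also counted in the choice of 1 probe set per gene. Motor neurons were laser captured from 12 µm sections stained with cresyl violet, about 200 of each pool per animal, and their RNA, 1.5 ng or more, was amplified before hybridisation to Affymetrix Mouse Genome 430 2.0 arrays. Each value is therefore the mean over many pooled cells of an animal. The labels give no muscle, column or marker by which cells were picked, so that L5 can hold several pools of limb and trunk motor neurons.

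Limb motor neurons of the lumbar cord sit in the lateral motor column and drive skeletal muscle of the leg. The dorsolateral nucleus of rodents belongs to the group of nuclei that correspond to Onuf's nucleus of humans, whose motor neurons drive the external sphincters and other striated muscles of the pelvic floor. Onuf's nucleus is known to be relatively spared in amyotrophic lateral sclerosis (ALS), in which limb motor neurons are lost, and its neurons carry features of both somatic and visceral motor neurons. Because both pools are lumbosacral, their position along the body axis is nearly the same.

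Values are array intensities, scaled to one target on every array. A value of 18.3, the highest of 27 control probe sets for bacterial transcripts that were not spiked in, is used as the noise level. The 3 replicates of DL were less alike than those of L5, with a median SD of log2 values of 0.29 against 0.20 over 7120 genes with a mean above 200. The signal of the Gapdh control at its 3' end over that at its 5' end, a reading of RNA quality, was also less even in DL. This ratio was 3.27, 2.44 and 3.75 in DL and between 2.45 and 2.53 in L5. The same ratio of the actin control overlapped between pools, at 0.93, 0.81 and 0.99 in DL and 0.93, 0.90 and 0.93 in L5. Neither control thus set the pools apart, since the Gapdh ratio of DL array 2, at 2.44, lay under those of L5. On the first principal component of all genes the DL arrays lay at 41.6 to 49.3 and the L5 arrays at -11.7 to -8.64, and no array lay among those of the other pool.

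Both pools carried the genes of motor neurons. Slc18a3, which loads acetylcholine into vesicles, was at 2294, 3574 and 2616 in L5 and at 1657, 2556 and 774 in DL. Slc5a7, the choline transporter, was at 4979, 3826 and 3415 in L5 and at 2864, 3351 and 3475 in DL. Both genes were far above noise on every array and the pools overlapped. Prph, the neurofilament protein peripherin, was at 10376, 10280.2 and 10114 in L5 and at 9121, 9228 and 7529.5 in DL. Chat, the acetylcholine synthesising enzyme, has a single probe set on the array, which read 4.3, 1.2 and 12.8 in L5 and 16.7, 21.8 and 8.4 in DL, at or near noise in both pools, so that it does not mark either. Of 19 motor neuron identity genes, 0 rose and 1, Isl1, fell in L5, beside 1.25% and 1.27% of all genes. The median log2 difference was 0.36 (0.10 to 0.48 under the 7 other settings) against 0.06 over all genes tested. The L5 arrays all lay above the DL arrays in 7 of the 19 and below in 1, beside 13.7% and 9.64% of all genes. At an unadjusted p under 0.05 were 8, of which 6 were higher and 2 lower in L5. Of all 18193 genes 3314 passed this threshold after median centring and 3402 after quantile normalization, steps that the 8 did not have. Summed intensities were 86371.5 to 90003 in L5 and 58427 to 71758.5 in DL. Isl1 encodes a LIM homeodomain factor that specifies motor neurons and is also kept by sensory and visceral neurons. It was at 495, 550.5 and 749.5 in L5 and at 3128, 2726 and 2299 in DL. All DL arrays lay above all L5 arrays, and the log2 difference was -2.16 ± 0.23 (limma adjusted p = 0.00743). The 34945 probe sets that name 1 gene were also fitted together, which is called the fit of all probe sets below. In it both probe sets of Isl1 were called, and counts of called probe sets given below are from that fit. With 1 of the 9 arrays left out at a time, the call of Isl1 held in 7 fits, and its adjusted p reached 0.0621 without L5 array 2. Isl2, a second LIM factor, was at 58.3, 53.1 and 145 in L5 and at 101, 87.2 and 101 in DL, with overlap. Throughout, fewer cells that express a gene and less RNA of it per cell cannot be told apart, since each array is a pool of cells.

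Differences are given on the scale of log2(intensity + 16), L5 minus DL, with the standard error of the limma fit, and a gene is said to rise or fall in L5 where its Benjamini-Hochberg adjusted p lay under 0.05. By this rule 459 of 18193 genes (2.52%) were called, 228 higher in L5 (1.25%) and 231 lower (1.27%). Centring each array on its median changed the split to 194 higher and 298 lower, or 39.4% higher where the uncentred values gave 49.7%. The median size of a called log2 difference was 1.63, and 135 of the called genes differed by more than 2. Of the called genes 286 had several probe sets, and in 71 of these more than 1 was called in the direction of the gene. In 2 called genes a probe set was called the other way. All 459 had their 3 L5 arrays on one side of their 3 DL arrays. Such separation was common without a call, since it was seen in 4254 genes (23.4%), 2501 of them higher in L5 (13.7%) and 1753 lower (9.64%). The plot of difference against mean level shows calls among dim and bright genes. The median log2 difference over all 18193 genes was 0.06, and the medians of gene lists below stand beside that value. Each list median is followed by its range under 7 other settings, namely median centring, quantile normalization, pseudocounts of 1 and 64, the mean of all probe sets, the Gapdh ratio as a covariate and the fit without DL arrays 1 and 3. Over all genes this range was -0.02 to 0.11.

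**Figure D1:**
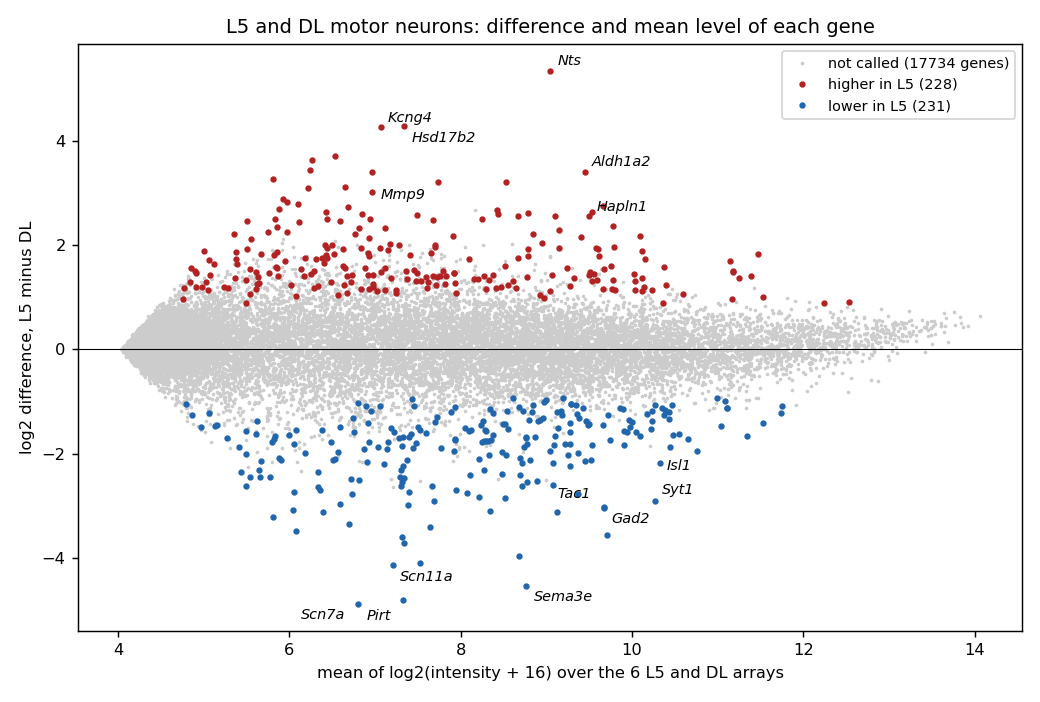
The log2 difference L5 minus DL of each gene (vertical axis) is plotted against the mean of log2(intensity + 16) over the 6 L5 and DL arrays (horizontal axis). Red points mark the 228 genes higher in L5, blue points the 231 lower in L5 and grey points the 17734 not called. Nts lies at the top at 5.34 and Scn7a at the bottom at -4.88.

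Fewer genes were called whichever single array was left out, and each such fit also had fewer arrays. What part the smaller number of arrays had in this was not tested. Without L5 array 1, 2 or 3 the fit called 61, 73 and 95 genes, of which 61, 68 and 89 were among the 459. Without DL array 1, 2 or 3 it called 142, 238 and 254, and without an OMN array 234 to 244. With the Gapdh ratio added as a covariate 90 genes were called, 69 of them among the 459. With DL arrays 1 and 3 left out, the pair with the highest Gapdh ratio, limma called 0 genes and 2996 had an unadjusted p under 0.05. In that last fit the lone DL array is assumed to vary like the arrays of the other pools. For 49 of the 459 genes the call held in all 9 fits that left out 1 array, and beside each group of genes below it is said in how many of these fits a call held.

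The largest differences above DL were those of Nts, Hsd17b2, Kcng4, Uts2, Cited1, Hcrtr2, Sgpp2, Aldh1a2, Mgam, Egln3, Mmp9 and Vipr2, and below DL those of Scn7a, Pirt, Sema3e, Scn11a, Snai2, Gcnt2, Synpr, Nptx2, Mpped2, Kcnj5, Tent5a and Rnf207. They include peptides and their receptors, ion channels, enzymes and transcription factors. The dimmer pool lay at noise on all 3 arrays in 33 of the 228 genes higher in L5 and in 22 of the 231 lower, and where such a gene is described its fold is given as a lower bound against the noise level. The fitted log2 difference of such a gene depends on the pseudocount and is not a bound.

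**Figure D2:**
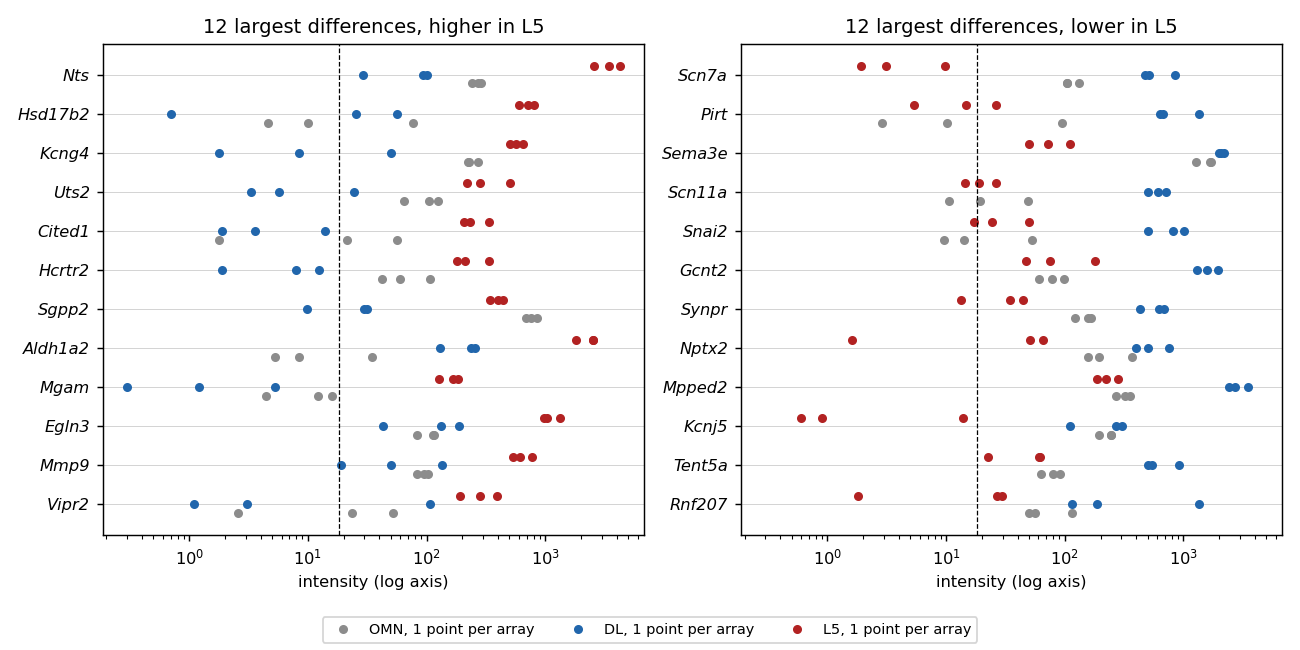
Intensity on each array (horizontal log axis, 1 point per array) of the 12 called genes with the largest log2 difference in each direction; red is L5, blue DL and grey OMN, and the dashed line is the noise level of 18.3. In all 24 genes the 3 L5 points and the 3 DL points do not overlap, with Nts at 2587 to 4232 in L5 and 29.1 to 100.4 in DL.

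Neuropeptide genes gave calls in both directions. Neuropeptides are cut from precursors, released beside the classical transmitter and act on G protein coupled receptors. Of 32 neuropeptide genes measured, 3 rose in L5, 3 fell and 26 were not called, beside 1.25% higher and 1.27% lower among all genes. The list median was -0.10 (-0.18 to -0.05 under the 7 other settings) against 0.06 over all genes. The promoters of Nts, which rose, and of Tac1 and Cartpt, which fell, are shown because these peptides had the smallest adjusted p or the largest fall. Each is the 250 bases before the transcription start, from RefSeq (GRCm38.p6), 5′ to 3′ on the strand of the gene. Capitals mark matches to the cyclic AMP response element (CRE, TGACGTCA), to its core (TGACG) or to the AP-1 motif (TGACTCA), on either strand. The full element contains the core on both strands.
Nts, chr10:102490419-102490668, minus strand: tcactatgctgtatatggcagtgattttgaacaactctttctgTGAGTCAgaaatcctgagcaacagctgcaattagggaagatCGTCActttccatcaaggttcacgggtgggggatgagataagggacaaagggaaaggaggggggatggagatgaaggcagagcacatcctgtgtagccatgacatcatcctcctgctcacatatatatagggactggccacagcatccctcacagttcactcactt
Tac1, chr6:7554811-7555060, plus strand: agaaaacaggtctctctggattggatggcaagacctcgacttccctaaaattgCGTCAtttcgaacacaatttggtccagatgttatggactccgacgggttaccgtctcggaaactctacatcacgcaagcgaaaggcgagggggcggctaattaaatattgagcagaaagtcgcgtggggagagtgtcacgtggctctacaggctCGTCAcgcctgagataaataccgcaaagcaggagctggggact
Cartpt, chr13:99900684-99900933, minus strand: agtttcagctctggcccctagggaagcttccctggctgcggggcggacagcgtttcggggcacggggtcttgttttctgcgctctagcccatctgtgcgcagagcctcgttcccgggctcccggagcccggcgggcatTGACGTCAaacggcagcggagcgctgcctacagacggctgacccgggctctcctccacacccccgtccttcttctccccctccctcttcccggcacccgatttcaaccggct
Counted from the transcription start, the window of Nts holds an AP-1 match at -207 and a core at -166, that of Tac1 cores at -197 and -43, and that of Cartpt a full CRE at -112. The window of Gal held none of these letters. Such matches are common. The core was found in 23.2% of 14452 promoter windows of tested genes, in 20.8% of those of genes higher in L5 and in 18.6% of those of genes lower in L5. The full CRE was found in 2.27% of all windows and the AP-1 motif in 3.83%.

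Nts, which encodes neurotensin and neuromedin N, was at 4232, 3419 and 2587 in L5 and at 29.1, 100.4 and 93.0 in DL. Every L5 array exceeded every DL array, and the log2 difference of 5.34 ± 0.37 (limma adjusted p = 0.00268) was the largest of all genes in this direction. Uts2, the precursor of urotensin II, known from motor neurons of the cord, was at 282, 219.7 and 508 in L5 and at 3.3, 5.7 and 24.3 in DL. It was higher on every L5 array than on any DL array, with 2 of its 3 DL values at noise, and the difference was 3.70 ± 0.39 (limma adjusted p = 0.00720). Adm, the precursor of the vasodilator adrenomedullin, was at 3623, 3865 and 4224 in L5 and at 1853, 1291 and 1058 in DL. Adm is outside the rule for named genes and is given because the count is small, and its difference was 1.50 ± 0.25 (limma adjusted p = 0.0297).

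In the opposite direction, Tac1, the precursor of substance P and neurokinin A, was at 347, 263 and 219 in L5 and at 2408, 2033 and 2502 in DL. Every DL array lay far above every L5 array, a difference of -3.01 ± 0.31 (limma adjusted p = 0.00720). The call was made with 1 of its 2 probe sets. Cartpt, the precursor of the CART peptides, was at 78.9, 78.4 and 84.0 in L5 and at 762, 596 and 497 in DL. The L5 values were low and close together, and the difference was -2.70 ± 0.27 (limma adjusted p = 0.00616). Gal, the galanin precursor, was at 45.1, 16.9 and 25.3 in L5 and at 159.7, 186 and 175 in DL, a difference of -2.12 ± 0.25 (limma adjusted p = 0.0107), with 1 L5 array at noise. Penk, the enkephalin precursor, and Cck, the cholecystokinin precursor, were the uncalled peptide genes with the smallest p. Penk was at 896, 1168 and 1153 in L5 and at 1772, 1783 and 1549.8 in DL (adjusted p = 0.151). Cck was at 169, 150.3 and 112 in L5 and at 194, 305 and 235 in DL (adjusted p = 0.205). With 1 array left out, the call held in all 9 fits for Nts, in 8 for Uts2 (adjusted p up to 0.0534, without L5 array 1), Tac1 (adjusted p up to 0.0560, without L5 array 2) and Cartpt (adjusted p up to 0.0525, without L5 array 1), in 7 for Gal (adjusted p up to 0.0735, without L5 array 2) and in 1 for Adm (adjusted p up to 0.139, without L5 array 2).

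Receptors for neuropeptides gave calls in both directions. Of 47 measured, 5 rose in L5 and 2 fell, beside 1.25% and 1.27% of all genes, and the list median was 0.09 (0.01 to 0.46 under the 7 other settings) against 0.06 over all genes. Hcrtr2, a receptor for the orexins, was at 334, 179.9 and 210.0 in L5 and at 12.3, 8.0 and 1.9 in DL. All DL arrays were at noise, so that the L5 level was at least 12.7-fold that of DL, with a fitted difference of 3.44 ± 0.36 (limma adjusted p = 0.00723). Trhr, the receptor of thyrotropin-releasing hormone, a peptide released onto motor neurons by descending fibres, was at 2633, 2028 and 1693 in L5 and at 224, 472 and 241 in DL. It was high in L5 and moderate in DL, a difference of 2.76 ± 0.34 (limma adjusted p = 0.0125) with both probe sets called. Npr3, the clearance receptor of natriuretic peptides, was at 734, 754 and 647 in L5 and at 58.0, 208 and 109.9 in DL and differed by 2.51 ± 0.33 (limma adjusted p = 0.0143). Tacr1, the substance P receptor, was at 273, 318 and 243 in L5 and at 125, 114 and 102 in DL, a difference of 1.18 ± 0.18 (limma adjusted p = 0.0223). The substance P precursor and its receptor thus stood in opposite directions. Vipr2, a receptor of vasoactive intestinal peptide, was at 392, 283 and 193 in L5 and at 1.1, 106 and 3.1 in DL. Its DL array 2 stood well above the other DL arrays, which were at noise, and the difference was 3.10 ± 0.59 (limma adjusted p = 0.0465). With no replicate block the adjusted p of Vipr2 was 0.0509, and the call was lost.

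The receptors that fell in L5 respond to vasopressin and to somatostatin. Avpr1a, the vasopressin V1a receptor, was at 30.2, 62.4 and 68.3 in L5 and at 465, 186 and 483 in DL, a difference of -2.44 ± 0.39 (limma adjusted p = 0.0261) with 1 of its 2 probe sets called. Sstr4, a somatostatin receptor outside the rule for named genes, was at noise on all L5 arrays, at 14.8, 6.2 and 1.1, and at 116, 107 and 414 in DL. Sstr4 was at least 9.44-fold lower in L5 (-3.08 ± 0.55, limma adjusted p = 0.0385), with DL array 3 far above the other DL arrays. Cckbr and Npr2 were the uncalled receptors with the smallest p, with log2 differences of 1.11 ± 0.23 (limma adjusted p = 0.0585) and 1.34 ± 0.31 (limma adjusted p = 0.0755). When single arrays were left out, the call held in 8 of 9 fits for Hcrtr2 (adjusted p up to 0.0525, without L5 array 1), in 6 for Npr3 (adjusted p up to 0.0866, without L5 array 1), in 5 for Trhr (adjusted p up to 0.0649, without L5 array 2), in 2 for Avpr1a (adjusted p up to 0.118, without L5 array 1), in 1 for Vipr2 (adjusted p up to 0.160, without L5 array 3) and in none for Tacr1 (adjusted p up to 0.119, without L5 array 2) and Sstr4 (adjusted p up to 0.159, without L5 array 2).

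Sodium channels carry the upstroke of the action potential. Of 12 sodium channel genes 1 rose in L5 and 4 fell, beside 1.25% and 1.27% of all genes, and the list median was -0.42 (-0.86 to -0.37 under the 7 other settings). Scn7a, an atypical channel known as a sensor of extracellular sodium, was at 9.7, 1.9 and 3.1 in L5 and at 856, 471 and 507 in DL. All L5 arrays were at noise while every DL array was bright, so that it was at least 32.2-fold lower in L5 (-4.88 ± 0.24, limma adjusted p = 0.00190), called with all 3 probe sets. Scn11a, a persistent-current channel known from nociceptive sensory neurons, was at 26.4, 14.4 and 18.8 in L5 and at 609, 714 and 503 in DL. It was at or near noise in L5 and bright on each DL array, a difference of -4.12 ± 0.28 (limma adjusted p = 0.00256). Its neighbour on chromosome 9, Scn10a, another channel of sensory neurons, is outside the rule for named genes. It was at 1.0, 9.1 and 1.0 in L5 and at 6.7, 4.9 and 17.7 in DL and was not called (adjusted p = 0.492).

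Scn9a lies next to Scn7a on chromosome 2 and encodes a channel of sensory and autonomic neurons. It was at 290.3, 272 and 205 in L5 and at 596, 1445 and 1207 in DL, a difference of -1.94 ± 0.35 (limma adjusted p = 0.0412) called with all 5 of its probe sets. DL array 1 was the closest to the L5 arrays. Scn3a, a channel known for its embryonic and neonatal expression, was at 397, 379 and 498 in L5 and at 1190.4, 1110.4 and 1054 in DL, a difference of -1.37 ± 0.20 (limma adjusted p = 0.0197) with 1 of its 2 probe sets called. The subunit that rose was Scn4b, an auxiliary subunit linked to resurgent current and fast firing. It was at 1682, 1976 and 1536 in L5 and at 235, 474 and 719.5 in DL, and differed by 1.95 ± 0.31 (limma adjusted p = 0.0266). Scn8a, the main channel of mature nodes and initial segments, was at 1012, 1647 and 1065 in L5 and at 595, 655 and 771 in DL and was not called (adjusted p = 0.112). Scn3b, an auxiliary subunit, was at 102, 192 and 161 in L5 and at 254, 501 and 336 in DL, also without a call (adjusted p = 0.0653). Across the 9 fits without 1 array, the call held in all 9 fits for Scn7a and Scn11a, in 3 for Scn3a (adjusted p up to 0.111, without L5 array 2) and in 1 for Scn9a (adjusted p up to 0.163, without L5 array 3) and Scn4b (adjusted p up to 0.135, without L5 array 2).

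Potassium channels set firing rate and resting potential, and their genes gave calls in both directions. Of 35 voltage-gated subunits and partners 4 rose and 2 fell, beside 1.25% and 1.27% of all genes, with a median of 0.43 (0.16 to 0.56 under the 7 other settings). Kcng4, a silent subunit that modifies Kv2 channels, was at 567, 646 and 505 in L5 and at 8.4, 50.1 and 1.8 in DL. It was high on all L5 arrays, and 2 DL arrays were at noise, a difference of 4.26 ± 0.34 (limma adjusted p = 0.00419). Kcna1 and Kcna2 are Shaker subunits placed beside the node and at the initial segment. Kcna1 was at 1676, 1903 and 1548 in L5 and at 586, 599.6 and 665 in DL, a difference of 1.44 ± 0.20 (limma adjusted p = 0.0171). Kcna2 was at 1111, 1138 and 808 in L5 and at 352, 350.2 and 451 in DL, a difference of 1.36 ± 0.23 (limma adjusted p = 0.0318) with 1 of its 4 probe sets called. Kcnc1, a subunit of the fast delayed rectifier outside the rule for named genes, was at 1145, 1140.2 and 1309 in L5 and at 385, 668 and 558 in DL, a difference of 1.17 ± 0.22 (limma adjusted p = 0.0444).

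The subunits that fell were Kcnv1 and Kcna6. Kcnv1, another silent subunit, was at 22.9, 26.2 and 24.4 in L5 and at 275, 279 and 232 in DL. Values within each pool were close, and the difference was -2.78 ± 0.18 (limma adjusted p = 0.00256) with all 3 probe sets called. Kcna6, a Shaker subunit, was at 52.8, 34.1 and 65.8 in L5 and at 440.3, 296 and 551 in DL with its most intense probe set, a difference of -2.72 ± 0.25 (limma adjusted p = 0.00475). Of its other probe sets 1 was called in the opposite direction, so that the direction of Kcna6 depends on the probe set. Kcnip1, a partner of Kv4 channels, was at 5209.5, 5152 and 4724 in L5 and at 2542, 2252 and 2788 in DL and just missed the threshold (0.99 ± 0.20, limma adjusted p = 0.0509). Under leave-one-out fits, the call held in all 9 fits for Kcng4, Kcnv1 and Kcna6, in 3 for Kcna1 (adjusted p up to 0.101, without L5 array 2), in 1 for Kcnc1 (adjusted p up to 0.171, without L5 array 1) and in none for Kcna2 (adjusted p up to 0.150, without L5 array 2).

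Among 28 inward rectifier, leak, calcium-activated and HCN channel genes, 4 rose in L5 and 1 fell, beside the same shares, with a median of 0.26 (0.10 to 0.43 under the 7 other settings). Kcnk3, a tandem-pore leak channel that sets the resting conductance of motor neurons, was at 1182, 1639.9 and 1692 in L5 and at 292, 476 and 382 in DL. Every L5 array was above every DL array, a difference of 1.94 ± 0.22 (limma adjusted p = 0.00877). Kcnj14, an inward rectifier known from motor neurons of cord and brain stem, was at 2050.5, 1873 and 1995 in L5 and at 299.8, 269 and 619.7 in DL and differed by 2.37 ± 0.30 (limma adjusted p = 0.0125). Kcnn2, a small-conductance calcium-activated channel behind the afterhyperpolarisation, was at 501, 494 and 468 in L5 and at 101, 215 and 236 in DL, a difference of 1.41 ± 0.26 (limma adjusted p = 0.0412). Kcnj12, another inward rectifier, was at 87.7, 123 and 123 in L5 and at 34.6, 17.0 and 42.5 in DL, a difference of 1.45 ± 0.27 (limma adjusted p = 0.0436). Kcnj5, a channel opened by G proteins, was at 0.6, 14.0 and 0.9 in L5 and at 304, 268 and 109.8 in DL. It was at noise on all L5 arrays, at least 11.3-fold lower than in DL (-3.47 ± 0.34, limma adjusted p = 0.00570). As each array was left out in turn, the call held in all 9 fits for Kcnj5, in 6 for Kcnk3 (adjusted p up to 0.0649, without L5 array 2), in 5 for Kcnj14 (adjusted p up to 0.0817, without L5 array 2) and in none for Kcnn2 (adjusted p up to 0.138, without L5 array 1) and Kcnj12 (adjusted p up to 0.135, without L5 array 3).

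**Figure D3:**
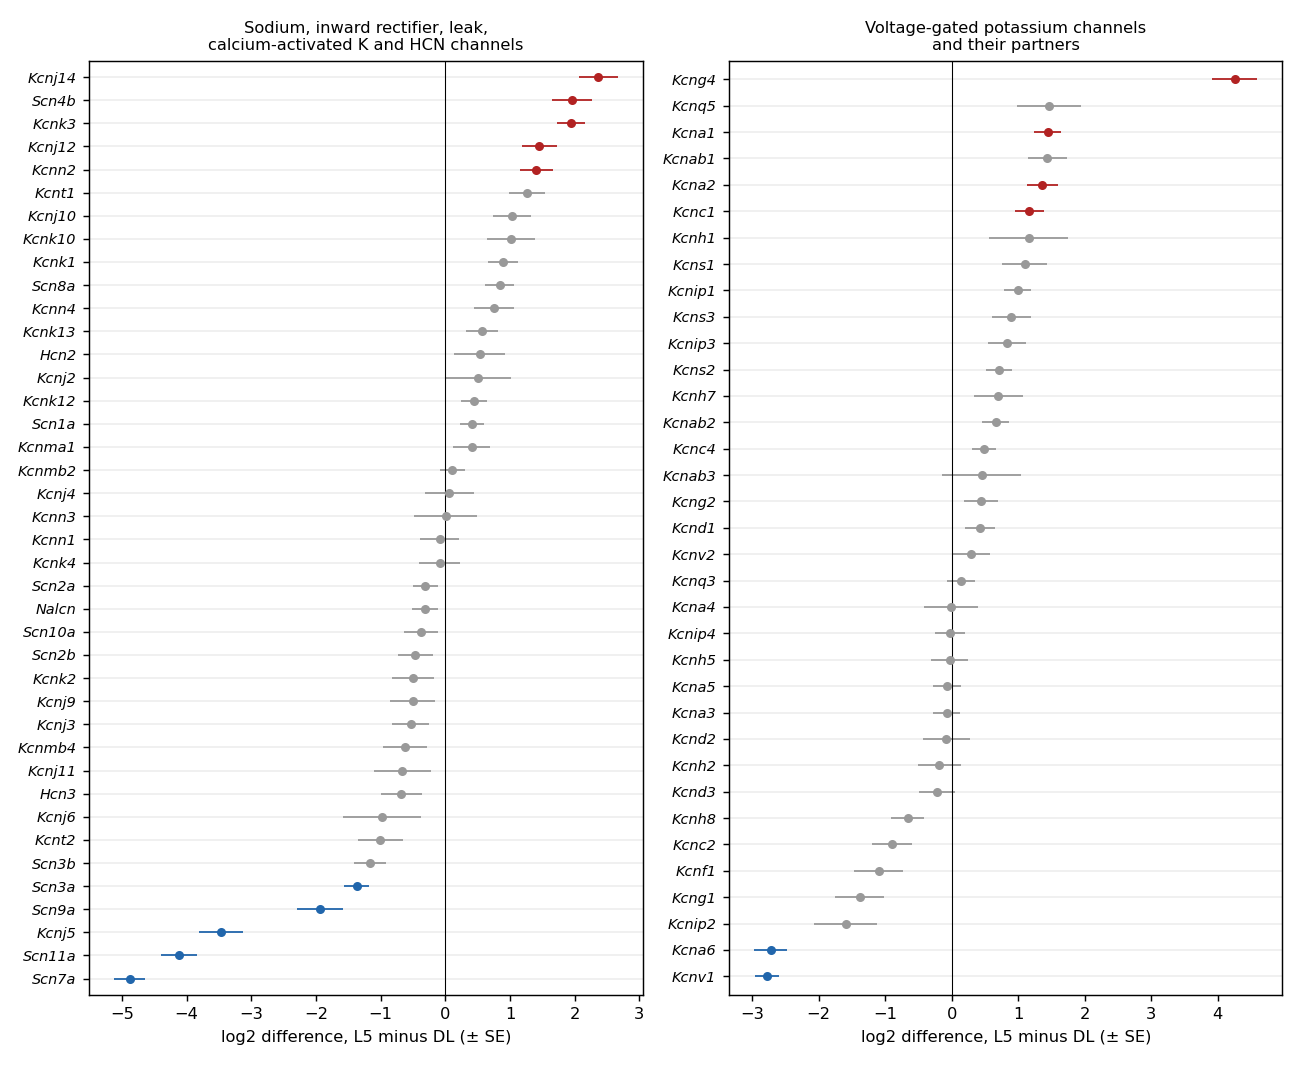
Log2 difference L5 minus DL with its standard error (horizontal axis) for each measured sodium, inward rectifier, leak, calcium-activated potassium and HCN channel gene (left) and each voltage-gated potassium channel gene or partner (right). Red points were called higher in L5, blue points lower and grey points neither, and the called genes run from Scn7a at -4.88 to Kcng4 at 4.26.

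Of 20 calcium channel genes 1 rose in L5 and 0 fell, beside 1.25% and 1.27% of all genes. This was Cacng2, stargazin, an auxiliary protein of AMPA receptors, which was at 2175, 2439 and 2049.9 in L5 and at 862, 1283 and 1064 in DL (1.06 ± 0.20, limma adjusted p = 0.0479). Cacna1b, the pore of N-type channels, and Cacna1e, that of R-type channels, stood in opposite directions without a call, at log2 differences of -0.92 ± 0.20 (limma adjusted p = 0.0663) and 1.06 ± 0.23 (limma adjusted p = 0.0684). Of 16 calcium buffers and sensors 1 rose and 2 fell, beside the same shares. Necab1, a neuronal calcium-binding protein, was at 10.0, 17.2 and 37.6 in L5 and at 232, 90.9 and 210.4 in DL. It was dim in L5, with 2 arrays at noise, and the difference was -2.34 ± 0.32 (limma adjusted p = 0.0153). Calb1, the buffer calbindin, was at 112, 88.4 and 87.0 in L5 and at 448, 244 and 302 in DL, a difference of -1.60 ± 0.28 (limma adjusted p = 0.0376) with 1 of its 4 probe sets called. Vsnl1, a sensor of the visinin family, was at 7819, 8336 and 8338 in L5 and at 4411, 4738 and 3832 in DL and rose by 0.92 ± 0.18 (limma adjusted p = 0.0494). With 1 array left out, the call held in 4 of 9 fits for Necab1 (adjusted p up to 0.0649, without L5 array 2), in 2 for Calb1 (adjusted p up to 0.161, without L5 array 2) and in none for Cacng2 (adjusted p up to 0.170, without L5 array 2) and Vsnl1 (adjusted p up to 0.169, without L5 array 2).

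Genes of the receptors for fast transmitters gave calls in both directions. Of 22 glutamate receptor genes 2 rose in L5 and 1 fell, beside 2.52% called among all genes. Grik1, a kainate receptor subunit, was at 180.5, 155 and 164 in L5 and at 1160.5, 1283 and 756 in DL. The L5 arrays were close together and far under DL, a difference of -2.54 ± 0.23 (limma adjusted p = 0.00475) called with 1 of 2 probe sets. Grin2a, an NMDA receptor subunit that gains in level after birth, was at 521, 584 and 486 in L5 and at 214, 197 and 153 in DL, a difference of 1.43 ± 0.18 (limma adjusted p = 0.0128). Grm3, a metabotropic receptor, was at 299, 304 and 419 in L5 and at 148, 105 and 104 in DL and differed by 1.40 ± 0.22 (limma adjusted p = 0.0266).

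Of 20 GABA and glycine receptor genes 1 rose and 1 fell, beside 2.52% called among all genes. Gabra5, the subunit of extrasynaptic GABA-A receptors, was at 1700.2, 1319.8 and 1319 in L5 and at 376, 392 and 454 in DL. L5 was higher on every array, a difference of 1.78 ± 0.20 (limma adjusted p = 0.00936). Glra3, a glycine receptor subunit, was at 52.8, 56.3 and 41.0 in L5 and at 159, 214 and 268 in DL and differed by -1.78 ± 0.23 (limma adjusted p = 0.0143) with 1 of its 2 probe sets called. Gabre, an uncalled subunit, was at 10.5, 6.4 and 36.0 in L5 and at 60.2, 329 and 135 in DL (-2.33 ± 0.52, limma adjusted p = 0.0686), with DL values that ranged widely. When single arrays were left out, the call held in all 9 fits for Grik1, in 7 for Glra3 (adjusted p up to 0.0855, without L5 array 2), in 6 for Gabra5 (adjusted p up to 0.0672, without L5 array 1), in 5 for Grin2a (adjusted p up to 0.0817, without L5 array 2) and in none for Grm3 (adjusted p up to 0.121, without L5 array 2).

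Of 33 monoamine and acetylcholine receptor genes 0 rose in L5 and 2 fell, beside 1.27% lower among all genes, with a median of -0.24 (-0.46 to -0.11 under the 7 other settings). Both encode subunits of the nicotinic receptor of autonomic ganglia, and they are neighbours on chromosome 9. Chrna3 was at 114, 103 and 151 in L5 and at 797, 1012 and 1108 in DL. All DL arrays lay far above all L5 arrays, a difference of -2.83 ± 0.23 (limma adjusted p = 0.00419) called with 2 of 3 probe sets. Chrnb4 was at noise on all L5 arrays, at 2.8, 3.6 and 2.9, and at 44.7, 98.3 and 118 in DL. It was at least 4.39-fold lower in L5 (-2.35 ± 0.31, limma adjusted p = 0.0144), called with both probe sets. Chrna5, the third gene of the cluster and outside the rule for named genes, was at 38.0, 23.0 and 63.5 in L5 and at 52.7, 45.9 and 61.6 in DL (adjusted p = 0.474). Chrna7, which forms receptors of a single kind of subunit, was at 258, 203 and 272 in L5 and at 129.7, 88.2 and 106 in DL and was not called with this probe set (1.07 ± 0.23, limma adjusted p = 0.0663), though 1 other probe set was called higher in L5. Across the 9 fits without 1 array, the call held in all 9 fits for Chrna3 and in 5 for Chrnb4 (adjusted p up to 0.0858, without L5 array 2).

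Genes that guide axons and shape connections differed in a few members of each family. Of 31 semaphorins, plexins and neuropilins 1 rose in L5 and 2 fell, beside 1.25% and 1.27% of all genes. Sema3e, a secreted semaphorin known to control which sensory afferents contact a motor pool, was at 49.7, 112 and 72.4 in L5 and at 2073, 1989 and 2183 in DL. The DL values were high and nearly equal and the L5 values low, a difference of -4.53 ± 0.28 (limma adjusted p = 0.00256) called with all 4 probe sets. Plxnd1, its receptor and outside the rule for named genes, was at 22.5, 40.6 and 29.4 in L5 and at 41.4, 52.9 and 65.8 in DL (adjusted p = 0.216). Sema4c fell, at 64.7, 126 and 57.9 in L5 and at 352, 324 and 206 in DL, with a log2 difference of -1.68 ± 0.29 (limma adjusted p = 0.0333). Plxna4, a receptor partner for class 3 semaphorins, rose, at 179, 197 and 107 in L5 and at 30.5, 44.6 and 49.7 in DL, by 1.60 ± 0.27 (limma adjusted p = 0.0307).

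Of 21 Eph receptors and ephrins 1 rose and 1 fell, beside 1.25% and 1.27% of all genes. Epha6 was at 93.9, 91.3 and 68.3 in L5 and at 17.0, 18.4 and 16.4 in DL. The DL values lay at the noise level and the L5 values above it, a difference of 1.59 ± 0.21 (limma adjusted p = 0.0144). Efnb3, an ephrin of the B class, was at 62.0, 54.9 and 100.3 in L5 and at 191, 376 and 248 in DL and differed by -1.69 ± 0.27 (limma adjusted p = 0.0280). Among 27 cadherins and protocadherins 2 rose and 1 fell, beside the same shares. Cadherins sort motor neurons into pools by adhesion. Cdh10 was at 607, 532 and 375 in L5 and at 104, 53.7 and 162 in DL (2.16 ± 0.39, limma adjusted p = 0.0382), with 1 of its 4 probe sets called. Cdh6 was at 522, 345 and 471 in L5 and at 176, 144 and 172 in DL (1.34 ± 0.24, limma adjusted p = 0.0395). Pcdh18 was at 47.8, 43.9 and 77.5 in L5 and at 353, 272 and 386 in DL, and its difference of -2.30 ± 0.27 (limma adjusted p = 0.0107) was called with 2 of 3 probe sets. Under leave-one-out fits, the call held in all 9 fits for Sema3e, in 6 for Pcdh18 (adjusted p up to 0.0763, without L5 array 2), in 5 for Epha6 (adjusted p up to 0.0899, without L5 array 2), in 1 for Sema4c (adjusted p up to 0.145, without L5 array 1), Plxna4 (adjusted p up to 0.150, without L5 array 2), Cdh10 (adjusted p up to 0.168, without L5 array 2) and Cdh6 (adjusted p up to 0.154, without L5 array 1) and in none for Efnb3 (adjusted p up to 0.122, without L5 array 2).

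Of 43 other guidance and adhesion genes 2 rose in L5 and 2 fell, beside 1.25% and 1.27% of all genes. Both that rose encode link proteins, which fasten the proteoglycans of perineuronal nets to hyaluronan. Hapln1 was at 2041, 1834 and 1401 in L5 and at 223, 279.8 and 359.8 in DL. L5 was high on all arrays, and the difference of 2.56 ± 0.25 (limma adjusted p = 0.00596) was called with all 4 probe sets. Hapln4 was at 1014, 1066 and 841 in L5 and at 132, 101 and 257 in DL, a difference of 2.55 ± 0.31 (limma adjusted p = 0.0113). Acan, the net proteoglycan aggrecan, was at 548, 468 and 511 in L5 and at 48.1, 126 and 247 in DL. Its arrays did not overlap either, but with unequal DL values the difference of 1.97 ± 0.39 did not pass (adjusted p = 0.0509). The genes that fell encode netrin receptors. Dcc, which mediates attraction, was at 382, 256 and 409 in L5 and at 1119.8, 1136 and 925 in DL, a difference of -1.58 ± 0.24 (limma adjusted p = 0.0215). Unc5b, of the repellent receptor family, was at 97.0, 98.4 and 55.4 in L5 and at 265, 246 and 351 in DL, a difference of -1.62 ± 0.27 (limma adjusted p = 0.0307). As each array was left out in turn, the call held in all 9 fits for Hapln1, in 6 for Hapln4 (adjusted p up to 0.0775, without L5 array 1), in 2 for Dcc (adjusted p up to 0.0988, without L5 array 1) and in none for Unc5b (adjusted p up to 0.121, without L5 array 1).

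Hox genes give motor neurons their position along the cord. Of 16 Hox genes of groups 8 to 13, 0 rose and 1 fell in L5, and of 17 of groups 1 to 7, 0 rose and 1 fell, beside 1.27% lower among all genes. Hoxc10, a lumbar determinant, was at 3723, 4626 and 3733 in L5 and at 3453, 3805 and 3416 in DL. Hoxd10, another, was at 1288, 1486 and 1330.5 in L5 and at 2031, 1134 and 2238 in DL. The arrays of both genes overlapped between pools, with limma adjusted p of 0.764 and 0.555. Hoxd11, the next gene of the cluster toward its posterior end, was at 492, 728 and 894 in L5 and at 2005, 2284 and 1753 in DL. Its DL arrays all lay above its L5 arrays, a difference of -1.53 ± 0.25 (limma adjusted p = 0.0294). Hoxd9 stood the other way without a call, at 2263, 1966 and 2107 in L5 and at 738, 803 and 1370.2 in DL (1.16 ± 0.25, limma adjusted p = 0.0640).

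Hoxa3, a gene best known from the hindbrain and cervical cord, was at 128, 148 and 204 in L5 and at 474, 687 and 561 in DL. DL was higher on all arrays, a difference of -1.75 ± 0.21 (limma adjusted p = 0.0117) called with 1 of its 4 probe sets. Hoxc8 was at 247, 316 and 429 in L5 and at 94.2, 149 and 205 in DL and was not called (1.09 ± 0.26, limma adjusted p = 0.0802). The plot of Hox genes in order of paralog group shows the values of all 33 measured. With 1 array left out, the call held in 7 of 9 fits for Hoxa3 (adjusted p up to 0.0787, without L5 array 1) and in 1 for Hoxd11 (adjusted p up to 0.126, without L5 array 1).

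**Figure D4:**
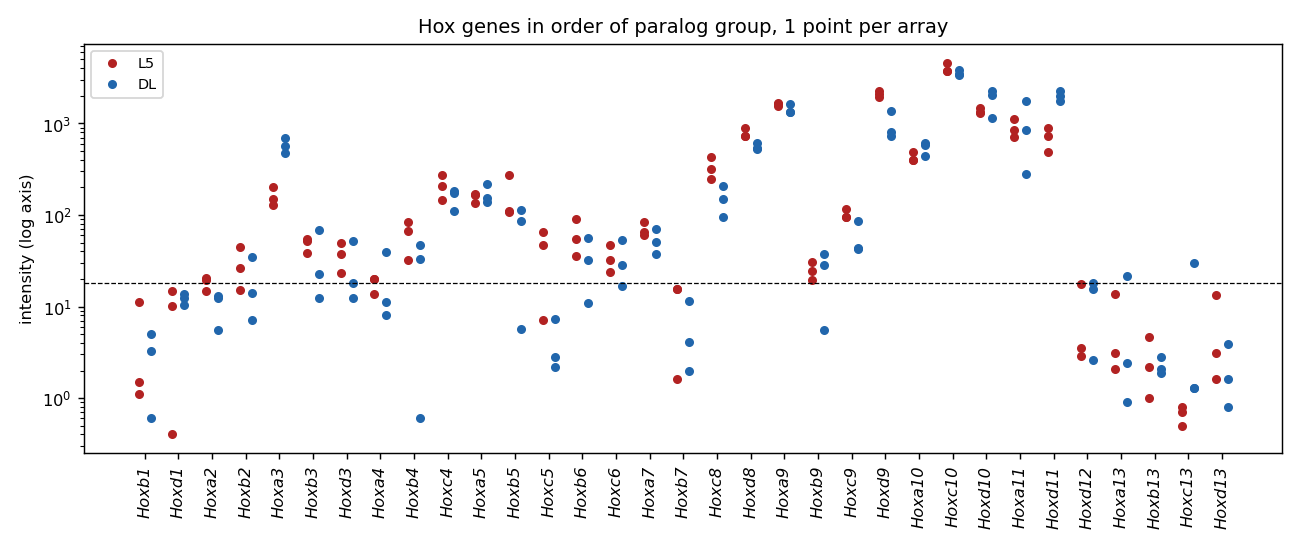
Intensity (vertical log axis) of each measured Hox gene in order of paralog group, with 1 red point per L5 array and 1 blue point per DL array; the dashed line is the noise level of 18.3. The red and blue points of most genes overlap, while Hoxa3 (128, 148 and 204 in L5, 474, 687 and 561 in DL) and Hoxd11 are called higher in DL. In groups 8 to 13 all L5 points lie above all DL points in 4 of 16 genes, among them Hoxd9 and Hoxc8, and below in 2. In groups 1 to 7 this holds for 1 of 17 genes each way. Over all genes tested the shares are 13.7% above and 9.64% below. None of the Hox genes higher in L5 was called.

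Factors that mark motor columns and pools gave calls in both directions. Of 31 measured, 3 rose in L5 and 7 fell (10 of 31 called, beside 2.52% of all genes), with a median of -0.10 (-0.22 to 0.07 under the 7 other settings). This median was above 0 in both fits that bear on the Gapdh ratio, 0.07 with the Gapdh covariate and 0.05 without DL arrays 1 and 3. Aldh1a2 makes retinoic acid and marks motor neurons of the limb-innervating lateral column. It was at 2512, 2535 and 1806 in L5 and at 256, 129.9 and 235 in DL, high on all L5 arrays and moderate in DL, a difference of 3.40 ± 0.39 (limma adjusted p = 0.00982). Nr2f2, an orphan nuclear receptor, was at 1512, 1387 and 1359 in L5 and at 261, 555 and 196 in DL and differed by 2.15 ± 0.31 (limma adjusted p = 0.0197) with 1 of its 6 probe sets called. Fign, a microtubule-severing enzyme outside the rule for named genes, was at 162, 222 and 102 in L5 and at 44.5, 11.2 and 31.2 in DL, a difference of 2.00 ± 0.36 (limma adjusted p = 0.0399).

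The column and pool genes that fell in L5 were led by Cpne4 and Ebf1. Cpne4, a calcium-dependent membrane-binding protein that marks digit-innervating motor neurons, was at 1.1, 2.7 and 3.1 in L5 and at 169, 68.2 and 73.5 in DL. All L5 arrays were at noise, at least 5.17-fold under DL (-2.61 ± 0.29, limma adjusted p = 0.00824), with 1 of 2 probe sets called. Ebf1, a factor of differentiating neurons, was at 20.3, 18.2 and 55.4 in L5 and at 201, 189.6 and 325 in DL, a difference of -2.48 ± 0.27 (limma adjusted p = 0.00743) with 2 of its 5 probe sets called. Tshz1, a zinc finger factor, was at 163, 158 and 126 in L5 and at 539, 559 and 538 in DL. The DL values were almost equal, and the difference was -1.77 ± 0.23 (limma adjusted p = 0.0144) with both probe sets called.

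Of the 4 others that fell, which are outside the rule for named genes, Zfhx3 and Satb1 are chromatin-binding homeodomain factors and Runx1 and Nkx6-1 are factors of motor neuron subsets. Their log2 differences were -1.64 ± 0.25, -1.43 ± 0.23, -2.49 ± 0.46 and -1.85 ± 0.32, with limma adjusted p of 0.0229, 0.0262, 0.0412 and 0.0355. Runx1 was uneven in DL, at 109, 563 and 248, and flat in L5, at 38.9, 28.0 and 28.6. Foxp1, the factor that defines the limb column, was at 706, 464 and 495 in L5 and at 1039, 1099 and 2136 in DL. The DL arrays lay above the L5 arrays but were uneven, and this probe set was not called (adjusted p = 0.246), while 1 of its 8 probe sets was called lower in L5. When single arrays were left out, the call held in all 9 fits for Cpne4, in 7 for Ebf1 (adjusted p up to 0.0625, without L5 array 2), in 6 for Aldh1a2 (adjusted p up to 0.0735, without L5 array 2), in 4 for Nr2f2 (adjusted p up to 0.107, without L5 array 1) and Tshz1 (adjusted p up to 0.0899, without L5 array 2), in 2 for Zfhx3 (adjusted p up to 0.118, without L5 array 1) and Satb1 (adjusted p up to 0.125, without L5 array 2), in 1 for Runx1 (adjusted p up to 0.159, without L5 array 2) and Nkx6-1 (adjusted p up to 0.149, without L5 array 3) and in none for Fign (adjusted p up to 0.111, without L5 array 1).

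Markers of fast and of slow or gamma motor neurons were both higher in L5 where they were called. Of 8 fast and alpha markers 2 rose and 0 fell, beside 1.25% and 1.27% of all genes, with a median of 0.66 (0.43 to 0.67 under the 7 other settings). Mmp9, a matrix metalloproteinase of fast motor neurons, was at 771, 609 and 539 in L5 and at 135, 19.1 and 50.3 in DL. Every L5 array was above every DL array, a difference of 3.20 ± 0.38 (limma adjusted p = 0.0107) called with both probe sets. Vipr2, given above, was the other. Rbfox3, the neuronal marker NeuN that gamma motor neurons lack, was at 1002, 1394 and 968 in L5 and at 526, 745 and 573 in DL and was not called (0.85 ± 0.30, limma adjusted p = 0.191).

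Of 10 slow and gamma markers 3 rose and 0 fell, beside 1.25% and 1.27% of all genes, with a median of 0.37 (0.29 to 0.61 under the 7 other settings). Plch1, a phospholipase C, was at 367, 454 and 455 in L5 and at 60.0, 56.6 and 57.7 in DL. Both pools were tight and far apart, a difference of 2.57 ± 0.18 (limma adjusted p = 0.00276). Esrrg, an orphan receptor of gamma motor neurons, was at 1931, 1572 and 1814 in L5 and at 719.5, 902 and 464 in DL, a difference of 1.38 ± 0.26 (limma adjusted p = 0.0475). In the fit of all probe sets this probe set was not called (adjusted p = 0.0565). Of the other two, 1 was called higher in L5 (1.95, adjusted p = 0.0232), and 1 stood the other way without a call (-0.84). Wnt7a, a secreted factor of gamma motor neurons, was at 252, 419.7 and 426 in L5 and at 84.1, 83.9 and 213 in DL, a difference of 1.50 ± 0.29 (limma adjusted p = 0.0489). With no replicate block its adjusted p was 0.122, and the call was lost. Wnt7a, Vipr2, Kcnc1, Kcnj12, Cacng2, Vsnl1 and Slc7a10 are called genes none of whose probe sets was called in the fit of all probe sets. Across the 9 fits without 1 array, the call held in all 9 fits for Plch1, in 6 for Mmp9 (adjusted p up to 0.0735, without L5 array 2), in 1 for Esrrg (adjusted p up to 0.176, without L5 array 3) and in none for Wnt7a (adjusted p up to 0.170, without L5 array 1).

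Visceral motor neuron markers, of interest because Onuf's nucleus has features of both kinds, gave calls in both directions. Of 10 measured, 1 rose in L5 and 1 fell, beside 1.25% and 1.27% of all genes. The list median was -0.07 (-0.28 to 0.03 under the 7 other settings). Nos1, neuronal nitric oxide synthase and the defining marker of preganglionic neurons, was at 26.3, 65.7 and 55.9 in L5 and at 5.4, 47.4 and 55.5 in DL, with overlap (adjusted p = 0.700). Gnb4, a G protein subunit, was at 720.3, 696 and 801 in L5 and at 1594, 1578 and 2137 in DL and fell, a difference of -1.23 ± 0.21 (limma adjusted p = 0.0339) with 1 of its 3 probe sets called. Fbn2, a fibrillin, was at 55.4, 39.5 and 41.6 in L5 and at 3.7, 2.3 and 5.2 in DL, at noise on all DL arrays, and rose at least 2.46-fold (1.63 ± 0.26, limma adjusted p = 0.0266). Summed over the list, intensities were 1593 to 1855 in L5 and 3042 to 3822 in DL. The sum is led by Gnb4, Gucy1a1 and Zeb2, with means of 739, 533 and 270 in L5 and 1770, 940 and 485 in DL. Of these only Gnb4 was called (limma adjusted p of 0.122 and 0.188 for the others). Phox2a, also on the list, was at or near noise in both pools, at 13.6, 7.0 and 22.7 in L5 and at 4.3, 1.3 and 1.9 in DL. Under leave-one-out fits, the call held in 3 of 9 fits for Fbn2 (adjusted p up to 0.123, without L5 array 2) and in 1 for Gnb4 (adjusted p up to 0.151, without L5 array 2).

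Trophic factors and their receptors fell in L5 where they were called. Of 35 measured, 0 rose and 4 fell, beside 1.25% and 1.27% of all genes, with a median of 0.06 (-0.04 to 0.13 under the 7 other settings). Ngfr, the p75 neurotrophin receptor, which developing motor neurons carry and injured ones regain, was at 113, 128 and 249 in L5 and at 843, 947 and 1364 in DL. All DL arrays exceeded all L5 arrays, a difference of -2.62 ± 0.24 (limma adjusted p = 0.00475) called with 2 of 3 probe sets. Bdnf, the neurotrophin that signals through TrkB, was at 101, 42.5 and 44.0 in L5 and at 449, 332 and 246 in DL, a difference of -2.23 ± 0.23 (limma adjusted p = 0.00649). Igfbp5 and Igfbp3 bind insulin-like growth factors in the extracellular space. Igfbp5 was at 763, 739.8 and 647 in L5 and at 3659.5, 3116 and 1601 in DL (-1.86 ± 0.27, limma adjusted p = 0.0197), with DL array 3 the lowest of its pool. Igfbp3 was at 135, 212 and 162 in L5 and at 483, 406 and 579.5 in DL (-1.45 ± 0.24, limma adjusted p = 0.0297). Igfbp2, of the same family, stood the other way and just missed the threshold, at 1015, 1350.3 and 1880.5 in L5 and at 585, 288 and 583 in DL (adjusted p = 0.0509). As each array was left out in turn, the call held in all 9 fits for Ngfr and Bdnf, in 4 for Igfbp5 (adjusted p up to 0.110, without L5 array 1) and in 1 for Igfbp3 (adjusted p up to 0.130, without L5 array 1).

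The motor neurons of the pelvic nuclei are known to respond to androgens. Of 26 steroid receptors and enzymes 1 rose in L5 and 1 fell, beside 1.25% and 1.27% of all genes. Hsd17b2, which oxidises testosterone and estradiol to less active steroids, was at 597, 721 and 800.4 in L5 and at 0.7, 56.0 and 25.3 in DL. All L5 arrays were bright and 1 DL array was at noise, a difference of 4.29 ± 0.50 (limma adjusted p = 0.0105). Rxrg, a retinoid X receptor, was at 13.7, 26.7 and 21.3 in L5 and at 96.0, 97.4 and 95.0 in DL, a difference of -1.63 ± 0.27 (limma adjusted p = 0.0317). Nr3c2, the mineralocorticoid receptor, was at 354, 305 and 278 in L5 and at 67.7, 68.9 and 285 in DL, with DL array 3 among the L5 values and no call (adjusted p = 0.147). With 1 array left out, the call held in 6 of 9 fits for Hsd17b2 (adjusted p up to 0.0689, without L5 array 2) and in 2 for Rxrg (adjusted p up to 0.126, without L5 array 1).

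The synaptic vesicle genes that were called were lower in L5. Of 28 synaptic vesicle genes 0 rose and 2 fell, beside 1.25% and 1.27% of all genes, with a median of 0.15 (0.03 to 0.17 under the 7 other settings). Syt1, the calcium sensor of fast release, was at 359.6, 569 and 397 in L5 and at 3930.5, 3048 and 3155 in DL. DL was higher on every array, a difference of -2.91 ± 0.25 (limma adjusted p = 0.00475) called with 3 of 4 probe sets. Syt2, the sensor that neuromuscular terminals carry, was at 1059, 1491 and 1336 in L5 and at 387, 835 and 537 in DL, the other way, and was not called (1.18 ± 0.28, limma adjusted p = 0.0778). Syt9 was at 62.0, 44.2 and 40.7 in L5 and at 422, 287 and 176 in DL, a difference of -2.20 ± 0.23 (limma adjusted p = 0.00720).

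Synpr and Nptx2 were among the largest differences below DL. Synpr, the vesicle protein synaptoporin, was at 13.4, 44.5 and 34.7 in L5 and at 686, 430.5 and 624 in DL, a difference of -3.71 ± 0.33 (limma adjusted p = 0.00475). Nptx2, a secreted pentraxin that gathers AMPA receptors, was at 1.6, 51.3 and 65.5 in L5 and at 755, 397 and 507 in DL. L5 array 1 was at noise and under the other L5 arrays, and the difference was -3.58 ± 0.58 (limma adjusted p = 0.0280) with 1 of 2 probe sets called. When single arrays were left out, the call held in all 9 fits for Syt1 and Synpr, in 7 for Syt9 (adjusted p up to 0.0588, without L5 array 2) and in 2 for Nptx2 (adjusted p up to 0.111, without L5 array 2).

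The remaining large differences were those of enzymes and transcription factors. Higher in L5, Egln3, a prolyl hydroxylase that senses oxygen, was at 1038, 1330.2 and 978 in L5 and at 42.6, 132 and 189 in DL (3.21 ± 0.40, limma adjusted p = 0.0125). Sgpp2, a phosphatase of sphingosine phosphate, was at 438, 401 and 339.7 in L5 and at 31.8, 9.8 and 29.8 in DL (3.41 ± 0.28, limma adjusted p = 0.00419). Both separated the pools completely. Mgam, an intestinal maltase, and Cited1, a transcriptional coregulator, were at noise on all DL arrays. Mgam was at 128, 167 and 184 in L5 and at 5.3, 0.3 and 1.2 in DL, at least 8.64-fold higher (3.26 ± 0.25, limma adjusted p = 0.00419). Cited1 was at 209, 232 and 339 in L5 and at 14.0, 1.9 and 3.6 in DL, at least 13.9-fold higher (3.62 ± 0.45, limma adjusted p = 0.0125).

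Lower in L5, Snai2, a zinc finger repressor, was at 50.2, 24.5 and 17.1 in L5 and at 501, 1009 and 813 in DL (-4.09 ± 0.43, limma adjusted p = 0.00720), called with 1 of 2 probe sets. Gcnt2, a glycosyltransferase that branches sugar chains, was at 47.0, 75.5 and 178 in L5 and at 1952, 1302 and 1593 in DL (-3.95 ± 0.38, limma adjusted p = 0.00506), called with 4 of 8 probe sets. In both genes every DL array was far brighter than every L5 array. Mpped2, a metallophosphoesterase, was at 279, 224 and 188 in L5 and at 2418, 3466 and 2733 in DL (-3.55 ± 0.24, limma adjusted p = 0.00256). Tent5a, a nucleotidyltransferase of RNA tails, was at 61.1, 61.3 and 22.5 in L5 and at 539, 922 and 504 in DL (-3.40 ± 0.31, limma adjusted p = 0.00475). Rnf207, a ring finger protein, was uneven in DL, where array 2 read far more than the others: it was at 29.7, 26.7 and 1.8 in L5 and at 185, 1338 and 115 in DL (-3.34 ± 0.55, limma adjusted p = 0.0294), called with 1 of 2 probe sets. Across the 9 fits without 1 array, the call held in all 9 fits for Sgpp2, Mgam, Gcnt2, Mpped2 and Tent5a, in 7 for Snai2 (adjusted p up to 0.0600, without L5 array 2), in 6 for Egln3 (adjusted p up to 0.0817, without L5 array 1) and Cited1 (adjusted p up to 0.0792, without L5 array 2) and in 2 for Rnf207 (adjusted p up to 0.135, without L5 array 2).

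The steadiest calls were those of 24 genes that stayed called under all 21 alternatives of processing fixed for this comparison. Of them 14 are named above, namely Chrna3, Kcnv1, Mgam, Mpped2, Ngfr, Nts, Plch1, Scn11a, Scn7a, Sema3e, Sgpp2, Syt1 and Tent5a, with Gad2 below. The other 10, singled out after their values were seen, were Aard, Il1f9, Lypd6 and Syndig1, higher in L5, and Cbln4, Ccdc172, Hhex, Rgs10, Rnf152 and Rtn4rl1, lower in L5. Aard, a little-studied protein, was at 1214, 1184 and 1309 in L5 and at 205, 239 and 287 in DL (2.28 ± 0.19). Lypd6, which binds nicotinic receptors, was at 1179.6, 1012 and 1037 in L5 and at 181, 159.9 and 147 in DL (2.61 ± 0.23), called with all 3 probe sets. Syndig1, a regulator of AMPA receptor synapses, was at 296, 375 and 229.5 in L5 and at 38.8, 57.1 and 43.4 in DL (2.32 ± 0.21). Each of these genes was higher on every L5 array. Il1f9, an interleukin of the IL-1 family, was at 200.5, 243 and 165 in L5 and at 15.3, 9.9 and 4.3 in DL, where all arrays were at noise, at least 10.9-fold higher (3.09 ± 0.21).

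Rtn4rl1, of the Nogo receptor family, was at 93.5, 98.2 and 93.0 in L5 and at 1011, 884 and 901 in DL (-3.09 ± 0.20). Cbln4, a synapse organiser of the cerebellin family, was at 196, 211 and 206 in L5 and at 1459.7, 1268 and 1226 in DL (-2.59 ± 0.21). Rgs10, which speeds the shut-off of G proteins, was at 177, 222 and 154 in L5 and at 1221, 1036 and 1099 in DL (-2.51 ± 0.22). In each, the DL arrays lay close together far above L5. Hhex, a homeodomain repressor, was at 18.3, 26.6 and 12.0 in L5 and at 244, 218 and 304 in DL (-2.96 ± 0.25). Rnf152, a ubiquitin ligase, was at 55.6, 20.9 and 64.1 in L5 and at 432, 359.6 and 594 in DL (-2.97 ± 0.27). Ccdc172, a coiled-coil protein, was at 1.1, 2.0 and 4.3 in L5 and at 105, 172 and 205 in DL, at noise on all L5 arrays and at least 8.43-fold lower in L5 (-3.21 ± 0.25). The limma adjusted p of these 10 genes ran from 0.00256 to 0.00475.

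Broad sets of housekeeping and stress genes made no call, beside 2.52% called among all genes. At that share sets of this size would hold few calls or none. Of all 18193 genes, 3314 had an unadjusted p under 0.05 after median centring and 3402 after quantile normalization. The list counts at this threshold below are from values without either step. With a variance trend and robust variances 1147 of the 18193 were called. Of 47 oxidative phosphorylation subunits limma called 0, with 19 at an unadjusted p under 0.05, all of them higher in L5, and 22 called with a variance trend and robust variances. The 3 L5 arrays lay above the 3 DL arrays in 34 of the 47 and below in 0, beside 18.7% above and 15.3% below among the 7120 genes with a mean over 200. The list median was 0.40 (0.17 to 0.40 under the 7 other settings), against 0.04 over those bright genes, but 0.17 against 0.04 after quantile normalization. It was 0.25 with the Gapdh covariate and 0.23 without DL arrays 1 and 3, against 0.03 over the bright genes in each. Atp5g1, a subunit of the ATP synthase ring, was at 5049, 5096 and 7810.1 in L5 and at 2849, 3851 and 2726 in DL (adjusted p = 0.109). Of 35 genes of the unfolded protein response and chaperones limma called 0, with 5 at an unadjusted p under 0.05, all higher in L5, and 3 called with trend and robust variances. The median was 0.29 (0.20 to 0.31 under the 7 other settings). Dnaja1, a cochaperone, was at 10667, 9773 and 9829 in L5 and at 6511, 7333 and 5682 in DL (adjusted p = 0.134). Of 26 immediate early and injury genes limma called 0, with 5 at an unadjusted p under 0.05, 1 higher and 4 lower in L5, and 0 called with trend and robust variances.

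Markers of other cells that laser capture could bring along were measured as well, and their part in the differences above was not tested. Of 9 inhibitory interneuron markers 0 rose and 2 fell in L5, beside 1.27% lower among all genes, with a median of -0.42 (-0.59 to -0.14 under the 7 other settings) and summed intensities of 1676 to 2352 in L5 and 5160.4 to 6024 in DL. The median was -0.29 with the Gapdh covariate and -0.14 without DL arrays 1 and 3. Gad2, a GABA synthesising enzyme, was at 288, 267 and 251 in L5 and at 2725, 2212 and 2083 in DL. Every DL array lay far above every L5 array, a difference of -3.04 ± 0.19 (limma adjusted p = 0.00256) called with both probe sets. Gad1, the other such enzyme, was at 77.5, 145 and 79.7 in L5 and at 267, 383 and 635 in DL (-1.89 ± 0.31, limma adjusted p = 0.0294). Slc32a1, the vesicular transporter of GABA and glycine, was at 806, 1261 and 822 in L5 and at 1584, 1834 and 2227 in DL and was not called (-0.97 ± 0.23, limma adjusted p = 0.0762). Slc6a5, the glycine transporter of inhibitory terminals, was at 457, 558 and 637 in L5 and at 440.4, 749.5 and 931 in DL, with overlap. Of 10 excitatory interneuron markers 1, Slc17a6, the vesicular glutamate transporter, rose, at 502, 479 and 389 in L5 and at 285, 177 and 144 in DL (1.16 ± 0.21, limma adjusted p = 0.0369), with summed intensities of 606 to 666 in L5 and 308 to 464 in DL. Its relative Slc17a7 was at noise in both pools, at 9.6, 2.6 and 14.9 in L5 and at 12.1, 6.8 and 6.6 in DL.

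Of 13 sensory neuron and Schwann cell markers 1 rose in L5 and 4 fell, beside 1.25% and 1.27% of all genes. Summed intensities were 26459 to 28152 in L5 and 21847 to 25859 in DL. The sum is led by Tubb3 and Prph, which motor neurons also carry. Besides Scn11a and Isl1, the genes that fell were Prrxl1 and Pirt. Prrxl1, a homeodomain factor of sensory neurons and their dorsal horn targets, was at 30.7, 35.5 and 90.8 in L5 and at 383, 334 and 411 in DL (-2.62 ± 0.24, limma adjusted p = 0.00475). Pirt, a membrane protein that tunes TRP channels of sensory neurons, was at 5.4, 26.1 and 14.8 in L5 and at 670.3, 629.5 and 1348 in DL (-4.80 ± 0.66, limma adjusted p = 0.0159). Both were high in DL on every array. Other markers of sensory neurons were not called. Avil was at 23.4, 27.9 and 24.6 in L5 and at 108, 5.7 and 29.8 in DL. P2rx3 was at 66.1, 14.0 and 19.0 in L5 and at 51.9, 43.1 and 67.4 in DL. Pou4f1 was at 67.3, 80.8 and 39.4 in L5 and at 187, 50.9 and 317 in DL. Each of the 3 overlapped between pools, and Avil and Pou4f1 were uneven in DL. Pmp22, a myelin protein of Schwann cells, was at 1863, 2202 and 2115 in L5 and at 826, 720.4 and 1077 in DL and rose by 1.24 ± 0.22 (limma adjusted p = 0.0361), while Pmp2, another, was at noise in both pools.

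Of 16 oligodendrocyte markers 0 rose and 4 fell, beside 1.27% lower among all genes, with a median of -0.43 (-0.95 to -0.29 under the 7 other settings) and summed intensities of 19219 to 20227 in L5 and 25939 to 28849.8 in DL. The median was -0.83 with the Gapdh covariate and -0.95 without DL arrays 1 and 3. Mal, a myelin proteolipid, was at 359, 392 and 272 in L5 and at 1416, 1503 and 1610.0 in DL (-2.11 ± 0.27, limma adjusted p = 0.0126). The others, Ugt8a, Cldn11 and Ermn, differed by -1.14 ± 0.17, -1.16 ± 0.19 and -1.54 ± 0.28 (limma adjusted p = 0.0208, 0.0277 and 0.0393). Mbp, myelin basic protein, was at 7692, 7689 and 7452 in L5 and at 8853, 9037 and 8379.8 in DL, high in both pools and not called. Of 14 astrocyte markers 1 rose and 1 fell, beside 1.25% and 1.27% of all genes, and their summed intensities were 27018 to 29756 in L5 and 22433 to 25184 in DL. Gfap was at 392, 351 and 233 in L5 and at 1074, 2333 and 1243 in DL, a difference of -2.14 ± 0.31 (limma adjusted p = 0.0185). Slc7a10, an amino acid transporter, rose, at 216, 242 and 354 in L5 and at 64.4, 99.0 and 140.0 in DL (1.31 ± 0.25, limma adjusted p = 0.0436), and Aqp4, the water channel of astrocytes, was at 4267, 4089 and 4882 in L5 and at 4577, 4728 and 3709 in DL, with overlap.

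Limma called 0 of 13 microglia markers, 0 of 12 endothelial and mural markers and 0 of 8 catecholamine genes. The share called among all genes was 2.52%, at which lists this short would hold few calls or none. An unadjusted p under 0.05 was seen in 4 microglia markers, all higher in L5, in 4 endothelial and mural markers, all lower, and in 0 catecholamine genes. Over all 18193 genes it was seen in 3314 after median centring, a step that the list counts did not have. With trend and robust variances 0, 2 and 0 were called, beside 1147 of all genes. The list medians were 0.46 (0.25 to 0.70 under the 7 other settings), -0.47 (-0.55 to -0.29) and 0.12 (-0.03 to 0.19). Summed intensities of the microglia markers were 1352 to 1485 in L5 and 875 to 1339 in DL. Those of the endothelial and mural markers were 4363 to 5144 in L5 and 6310.5 to 7005 in DL, and those of the catecholamine genes 414 to 595 in L5 and 365 to 1349.9 in DL. At least 1 of the 6 arrays was above noise for 11 of the 13, all 12 and 7 of the 8. Csf1r, the receptor that microglia need to survive, was at 363, 312 and 307 in L5 and at 90.8, 286 and 276 in DL. C1qb, a complement subunit, was at 343, 231 and 238 in L5 and at 252, 748 and 79.1 in DL. Aif1, a cytoskeletal protein of microglia, was at 109.5, 103 and 94.4 in L5 and at 60.9, 20.2 and 74.5 in DL, higher on every L5 array and not called, a difference of 0.90 ± 0.37. Microglial transcripts were thus detected in both pools. C1qa, another complement subunit, was at 4.0, 34.7 and 8.7 in L5 and at 1.6, 12.8 and 3.0 in DL, above noise on L5 array 2 only. Th, the defining enzyme of catecholamine neurons, was at 17.7, 21.2 and 9.0 in L5 and at 10.4, 3.3 and 19.7 in DL, at or near noise in both pools. Under leave-one-out fits, the call held in all 9 fits for Gad2 and Prrxl1, in 7 for Mal (adjusted p up to 0.0827, without L5 array 1), in 5 for Gfap (adjusted p up to 0.107, without L5 array 2), in 4 for Pirt (adjusted p up to 0.0910, without L5 array 3), in 1 for Gad1 (adjusted p up to 0.115, without L5 array 3) and Slc7a10 (adjusted p up to 0.164, without L5 array 3) and in none for Slc17a6 (adjusted p up to 0.159, without L5 array 2), Pmp22 (adjusted p up to 0.161, without L5 array 2), Ugt8a (adjusted p up to 0.110, without L5 array 1), Cldn11 (adjusted p up to 0.139, without L5 array 2) and Ermn (adjusted p up to 0.168, without L5 array 2).

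**Figure D5:**
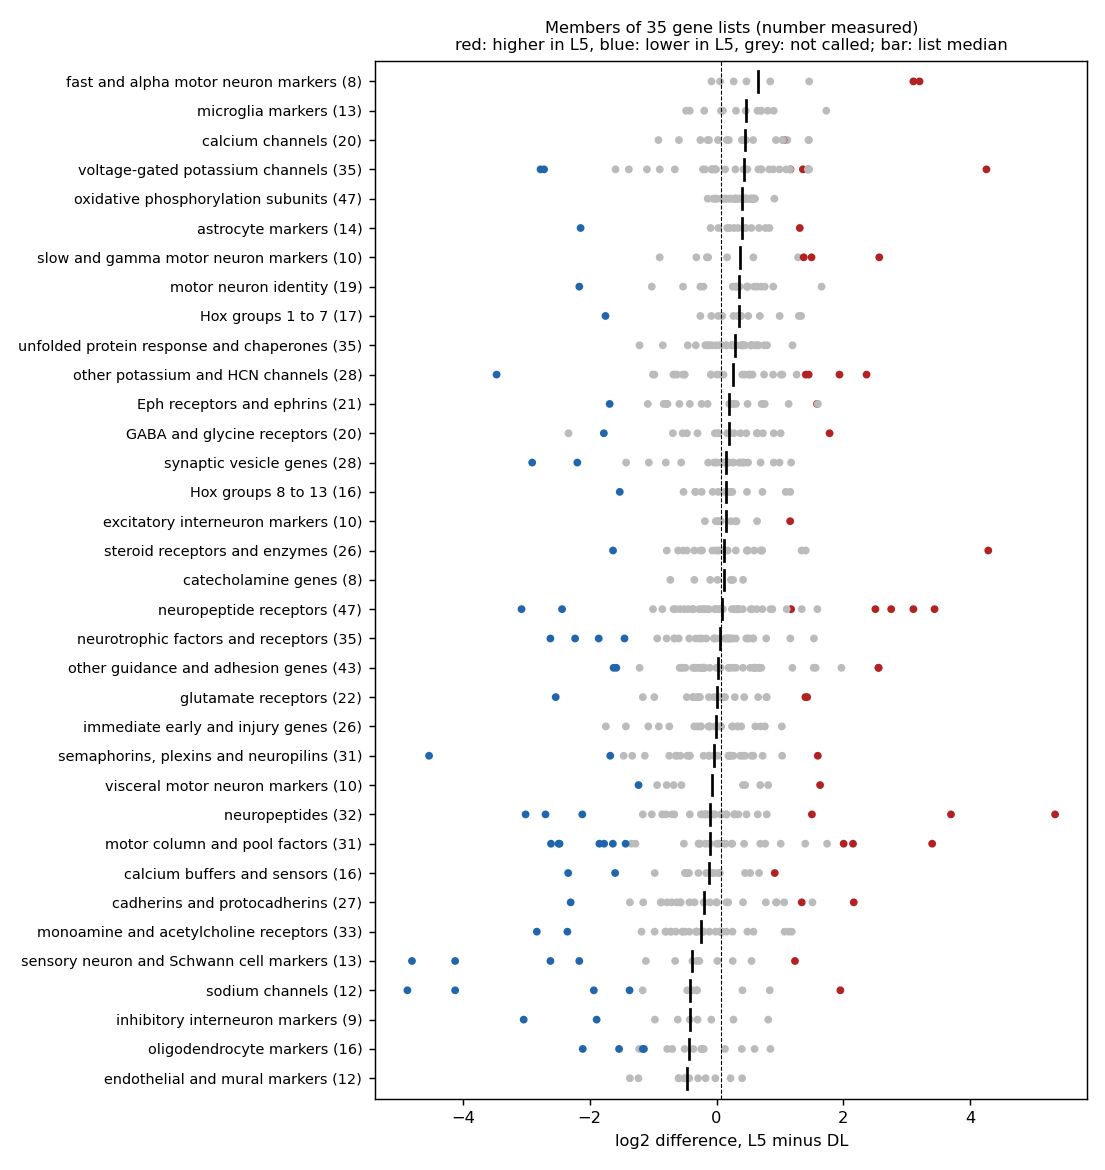
Log2 difference L5 minus DL (horizontal axis) of each measured member of the 35 gene lists (1 row per list, number measured in brackets); red points were called higher in L5, blue points lower and grey points neither. Black bars are list medians, from -0.47 for endothelial and mural markers to 0.66 for fast and alpha motor neuron markers, and the dashed line is the median over all genes of 0.06.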

How the data were processed

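The authors deposited 1 table of linear intensity values, 45101 probe sets on 9 arrays (L5, DL and OMN, 3 each). The software was not given in the sources used here. The mean of each array after removing 2% of values at each end was 250.0. Of 45037 probe sets that are not controls, 34945 named 1 gene, 932 several and 9160 none in the platform annotation, and 34741 gene IDs matched RefSeq with 0 symbols changed. Each of 18193 genes was represented by its probe set of highest mean log2 value over the 9 arrays. Of these genes 9010 had several probe sets and 2654 never exceeded noise.

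Log2(intensity + 16) of all 9 arrays was fitted in limma 3.58.1 (R 4.3.3) with pool as factor and replicate number as block, since the protocol says that each animal gave every pool, and L5 was contrasted with DL. P-values were adjusted by Benjamini-Hochberg over all genes and measure only the spread between these samples. SE are of the fit. Where the dim pool lay at noise on all 3 arrays, the bound is the geometric mean of the bright pool, values under 18.3 raised to it, over 18.3; this level was chosen after values were seen. The number of arrays limits precision.

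Members and the 35 lists (841 symbols, 768 measured, 5 by synonym) were chosen with earlier results of these data known. Named genes are the 12 largest called differences each way with provisional names passed over, up to 5 called and 2 uncalled members of each list by p, motor neuron panel genes and the first 5 markers of other cell types. Alternatives were block, arrays fitted, pseudocount, scaling, dim filter, probe set rule, variance model, array weights, Gapdh covariate and each array left out. On simulated arrays of this comparison (18193 genes), 14%, 40%, 66% and 90% of planted log2 differences of 1, 1.5, 2 and 3 were recovered, and 4.5% of 110 calls were false. These shares describe the simulated arrays only. Differences were planted only in genes above a set mean intensity, so that recovery in dimmer genes was not measured. Among bright genes of the real arrays the median SD differed between pools, at 0.20 in L5, 0.29 in DL and 0.17 in OMN. The share of false calls among the real calls therefore cannot be read from the simulation. Promoters were searched on both strands in 14452 windows.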

Additional observations from a re-analysis of the deposited data

How the results depend on the processing

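The count of 459 genes (228 higher and 231 lower in L5) stayed within 1.5 times with median centring (492), quantile normalization (402), a filter on dim genes (530), the mean of all probe sets (536), array weights (323) and the L5 and DL arrays alone with no replicate block (331). It was 805 (396 and 409) with no replicate block, 47 (20 and 27) with the L5 and DL arrays alone and the block, 62 (28 and 34) with a pseudocount of 1, 836 (417 and 419) with a pseudocount of 64, 1147 (621 and 526) with a variance trend and robust variances and 90 (41 and 49) when the Gapdh ratio was a covariate. The cause was not tested. Leaving out 1 array gave 61 to 254 genes, 21 to 126 of them higher and 40 to 133 lower, with fewer arrays in each fit. A further pair of alternatives was chosen after seeing the data. With 1 weight per pool 290 genes were called (139 and 151), all among the 459, and without DL arrays 1 and 3 limma called 0 (0 and 0), where 2996 genes had a p under 0.05 before adjustment. Of 94 named genes with a call, 14 stayed called under all 21 alternatives fixed for this comparison, and 24 in all 9 fits that left out 1 array. Equal replicate numbers of L5 and DL did not deviate together (correlations of 0.06, 0.01 and -0.05), so that the pairing by number rests on the protocol alone and the block cannot be tied to animals. No called gene changed direction except 1 with the mean of all probe sets. With that mean 330 of the 459 calls held. Among genes described above it lost the calls of Adm, Avpr1a, Scn3a, Kcna2, Kcna6, Kcnc1, Calb1, Grik1, Glra3, Cdh10 and Unc5b. It also lost those of Hoxa3, Satb1, Esrrg, Wnt7a, Fbn2, Gnb4, Gad1, Ugt8a and Ermn. Of the 35 lists, 11 had a median that changed sign under at least 1 of the 7 settings compared: motor column and pool factors, visceral motor neuron markers, calcium buffers, glutamate receptors, neurotrophic factors, semaphorins, Eph receptors and ephrins, other guidance genes, immediate early genes, sensory neuron and Schwann cell markers and catecholamine genes.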

Other observations

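Of 10092 probe sets that name no gene or several, fitted together with all 45037, 31 rose in L5 against DL and 36 fell. They carry no single gene name here and were not described further.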
